A study of Mus musculus with 6 samples.

Results

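Translation initiation and elongation factors are the proteins that bring the ribosome to a messenger RNA, find the start codon and add amino acids. The genes described here are the 61 of 13007 in the table whose symbols start with Eif or Eef and a digit, without Eif3g, Eif2s3y and symbols that contain -ps. All 61 passed the filter on low counts. RNA sequencing compared 3 AEL libraries (acute erythroid leukemia) with 3 NC libraries (normal erythroid precursors), all from C57BL/6 mouse bone marrow. The AEL cells, of genotype Trp53-/-ERG-expressing, were transduced to overexpress ERG, an ETS transcription factor, with GFP, and were sorted for GFP. The NC cells were WT and were sorted with antibodies to CD71 and Ter119, surface proteins of red cell precursors. The labels of all 6 libraries, NC included, also name SETBP1 and ASXL1 mutations, in conflict with the WT label of NC. They give neither age, nor the promoter that drove ERG, nor whether replicates came from separate animals, so the p-values measure the spread between these libraries. The sorts differed between the groups, and their part cannot be told apart from that of the leukemia.

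Initiation starts when eIF2, bound to GTP and the initiator tRNA, joins eIF1, eIF1A, eIF3 and eIF5 on the small ribosomal subunit. The eIF4F complex, made of the cap-binding protein eIF4E, the scaffold eIF4G and the helicase eIF4A, recruits this assembly to the capped end of the messenger RNA, and 4E-BP proteins block it by binding eIF4E. Elongation then needs eEF1A, which delivers aminoacyl-tRNA, and eEF2, which moves the ribosome along. In red cell precursors the eIF2 kinase HRI, the product of Eif2ak1, reduces initiation when heme is short.

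The E-box CACGTG, which MYC and related factors bind and which reads the same on both strands, was searched from 250 bases before to 50 bases after each RefSeq start (GRCm38.p6). A promoter was matched for 47 of the 61 genes, and 12 of these (25.5%) held the motif at 1 or more listed starts, against 11.9% of 9341 tested genes and 8.09% of all 27025 genes with a listed promoter. It was in 3 of 13 genes higher in AEL, 2 of 6 lower in AEL and 7 of 28 not called, against 14.7%, 10.9% and 11.1% of all tested genes in these classes. The 250 bases before the start are shown for the 5 called genes that hold it, with the E-box in capitals. Eif4e, Eif5a2 and Eif4g1 rose in AEL, and Eif1b and Eif3k fell. For Eif4e the start shown is 1 of 2 listed, and Eif4g1 has a further E-box outside the stretch shown.
Eif4e, chr3:138527018-138527267, plus strand: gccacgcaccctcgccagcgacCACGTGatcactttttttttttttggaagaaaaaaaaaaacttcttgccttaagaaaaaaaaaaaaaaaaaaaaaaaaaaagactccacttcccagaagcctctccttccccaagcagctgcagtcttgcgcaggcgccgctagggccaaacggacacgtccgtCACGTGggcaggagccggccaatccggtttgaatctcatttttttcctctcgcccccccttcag
Eif5a2, chr3:28781027-28781276, plus strand: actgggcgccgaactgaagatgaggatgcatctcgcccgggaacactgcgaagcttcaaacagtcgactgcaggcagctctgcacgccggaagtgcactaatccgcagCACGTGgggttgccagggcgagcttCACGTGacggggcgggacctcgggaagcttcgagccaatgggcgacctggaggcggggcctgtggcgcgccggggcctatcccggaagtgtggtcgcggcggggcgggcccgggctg
Eif4g1, chr16:20672477-20672726, plus strand: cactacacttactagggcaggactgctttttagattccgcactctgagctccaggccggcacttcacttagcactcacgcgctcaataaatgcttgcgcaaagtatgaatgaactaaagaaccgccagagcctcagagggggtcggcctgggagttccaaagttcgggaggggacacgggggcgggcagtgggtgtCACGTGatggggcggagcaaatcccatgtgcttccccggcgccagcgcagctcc
Eif1b, chr9:120492356-120492605, plus strand: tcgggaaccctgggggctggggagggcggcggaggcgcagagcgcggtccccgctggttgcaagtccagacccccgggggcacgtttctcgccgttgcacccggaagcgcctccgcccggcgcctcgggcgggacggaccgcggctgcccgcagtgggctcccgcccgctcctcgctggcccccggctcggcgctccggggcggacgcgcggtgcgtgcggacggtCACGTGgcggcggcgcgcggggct
Eif3k, chr7:28981889-28982138, minus strand: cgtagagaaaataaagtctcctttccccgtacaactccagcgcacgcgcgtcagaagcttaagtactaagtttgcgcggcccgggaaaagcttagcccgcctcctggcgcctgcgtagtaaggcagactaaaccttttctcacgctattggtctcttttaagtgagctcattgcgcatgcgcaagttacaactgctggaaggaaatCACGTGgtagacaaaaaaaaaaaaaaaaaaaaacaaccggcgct

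The libraries held 8171676 to 9945330 counts. Values are CPM, counts scaled to the library total multiplied by its TMM factor. Erg stood at 789.6, 556 and 684 CPM in AEL libraries, against 4.38, 7.56 and 8.52 CPM in NC libraries. Trp53 stood at 1171, 1092 and 976 CPM in AEL libraries, against 177, 175 and 162 CPM in NC libraries, and counts per gene do not check its genotype label. Summed over 10 erythroid marker genes, of which 7 fell, the level was 4225 to 9762 CPM in AEL and 32013 to 43205 CPM in NC. All 10 neutrophil markers fell, with sums of 17.6, 1033 and 116 CPM in AEL replicates 1, 2 and 3, against 7458 to 8695 CPM in NC. All 10 macrophage markers fell, with sums of 2.70 to 27.8 CPM in AEL, where Spic and Timd4 were at 0, against 2723 to 3190 CPM in NC. All 10 B cell markers fell, with sums of 1.80 to 2.74 CPM in AEL, against 229.6 to 279 CPM in NC. The 4 T and NK cell markers in the table, of which the 3 tested fell, summed to 0.225 to 0.915 CPM in AEL, against 47.1 to 52.7 CPM in NC. The 5 megakaryocyte markers, of which 1 rose and 2 fell, summed to 41.3 to 256 CPM in AEL, where Gp1bb and Ppbp were at 0, against 76.1 to 95.9 CPM in NC. The part of these cell types in the results was not tested, and in bulk samples fewer cells of a type and less RNA per cell cannot be told apart.

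Of the 61 genes, 16 rose and 8 fell in AEL (edgeR quasi-likelihood test, Benjamini-Hochberg adjusted p under 0.05 over all 12427 genes tested), and 37 did not pass. The share called was 39.3%, against a background of 52.8% of all genes tested. The share higher was 26.2%, against 23.9%, and the share lower 13.1%, against 29.0%. The median log2 fold change was 0.06 for the 61 genes and -0.05 for all genes tested. Over all genes 2965 rose and 3599 fell, and this split turned with library totals alone (3800 and 3081) and with quantile normalization (4029 and 3243), which moved the median of all genes to 0.14 and 0.11. Among the 61 genes the same scalings gave 18 higher and 7 lower, and 17 higher and 8 lower. Without NC replicate 1, 2 or 3 the number higher was 8, 9 or 7, and the number lower 5, 5 or 6.

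The groups did not overlap for 32 of the 61 genes, against a background of 66.0% of all genes tested. AEL lay above NC for 16 of them and below for 16, against 29.9% and 36.1% of all genes. Of the 24 called genes 7 changed by 1 or more on the log2 scale, against 4317 of the 6564 called among all genes tested. The AEL libraries varied more than the NC libraries for 48 of the 61 genes, with a median SD on the log2 scale of 0.18 in AEL and 0.11 in NC, and for 9977 of all 12427 genes.

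**Figure D1:**
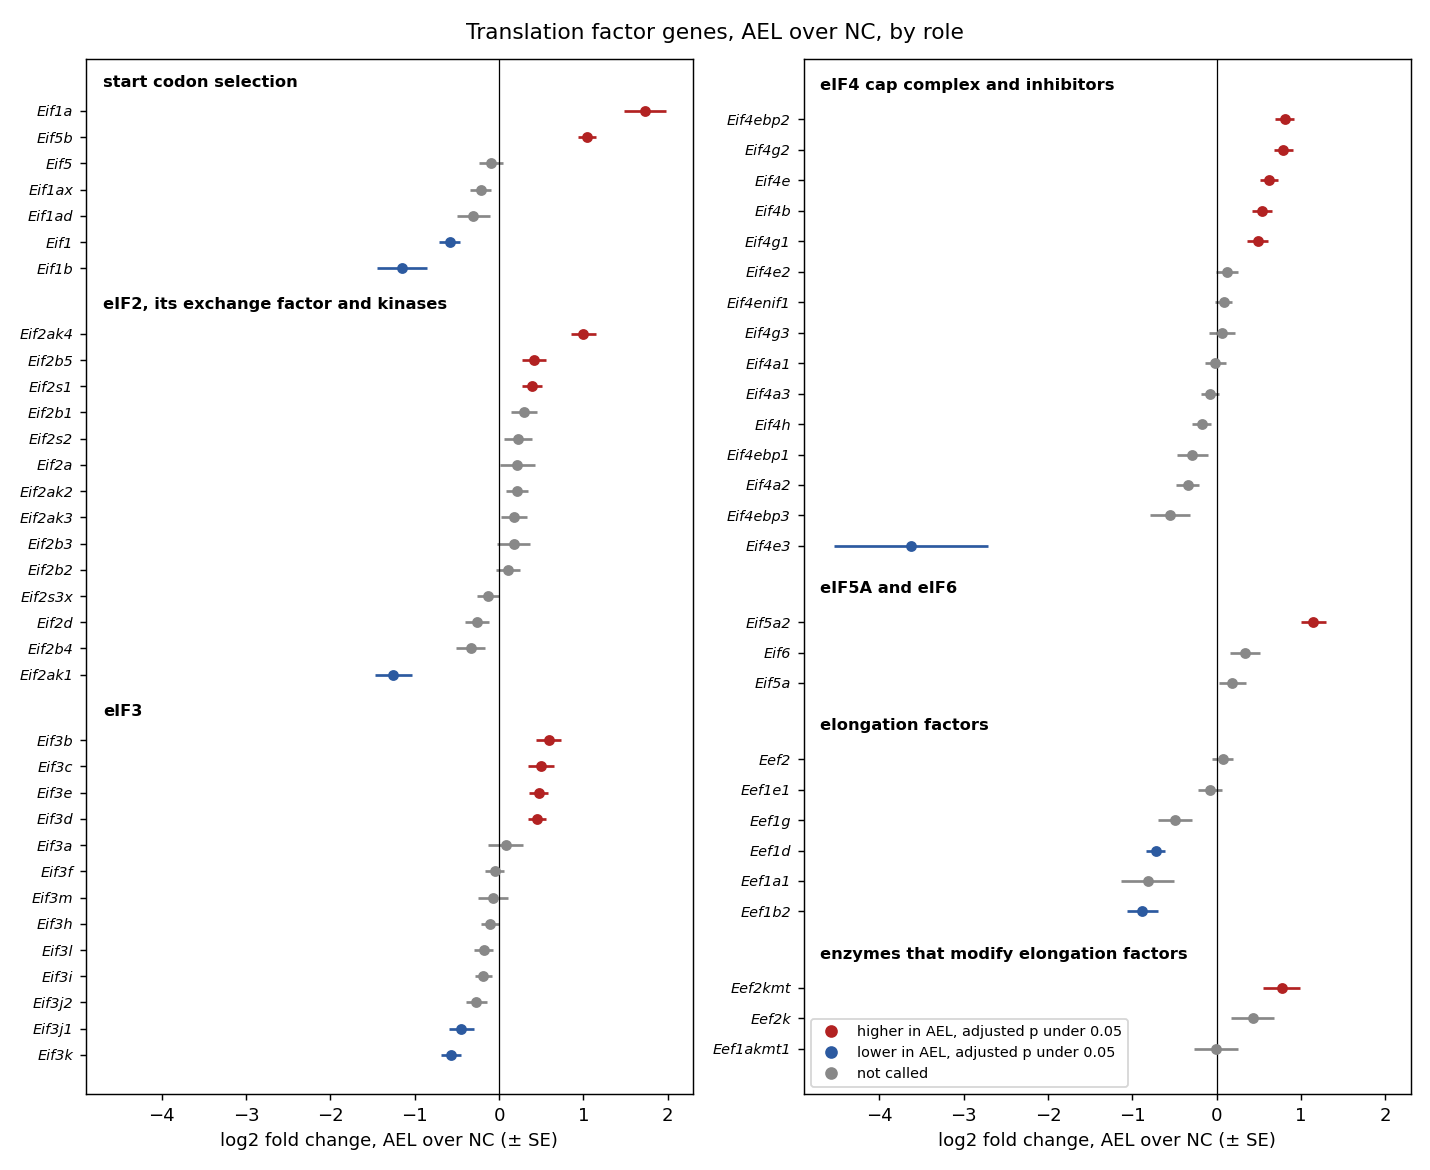
Log2 fold changes of the 61 translation factor genes, AEL over NC, with their SE, grouped by role. Red points rose, blue points fell and grey points did not pass. Eif1a lies farthest to the right at 1.74 and Eif4e3 farthest to the left at -3.63.

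Per kilobase of transcript, Eef1a1, Eef2 and Eif5a had the highest levels in AEL and in NC among the 60 genes with an annotated principal transcript. Their levels were 2513, 1505 and 871 CPM per kilobase in AEL, against 4435, 1433 and 766 in NC. Eif3b, a core subunit of eIF3, ranked 4 in AEL and 11 in NC, at 264 and 176 CPM per kilobase. Eif4e3 ranked last in both. Several genes share sequence with other genes or pseudogenes, so the counts assigned to them are uncertain. The share of 50-base windows that also occur in transcripts of other genes was 59.2% for Eef1a1, 65.3% for Eif4a1, 64.3% for Eef1g, 65.5% for Eif4ebp3, 91.8% for Eif3j2 and 39.8% for Eif3j1. It was 12.7% or less for the 7 called genes that changed by 1 or more on the log2 scale.

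Start codon selection held the largest rise among the 61 genes. Of its 7 genes 2 rose and 2 fell, 28.6% each, against 23.9% and 29.0% of all genes tested. Eif1a, which encodes a form of the scanning factor eIF1A, had 137, 113 and 211 CPM in AEL libraries, against 44.1, 52.7 and 41.6 CPM in NC libraries. Every AEL library was above every NC library and replicate 3 was the highest, and the log2 fold change was 1.74 ± 0.25 (SE, edgeR adjusted p = 0.00181). Its X-linked paralog Eif1ax averaged 131 ± 15.7 CPM across AEL libraries and 152 ± 9.01 CPM across NC libraries (SD, n = 3 each) and did not pass (edgeR adjusted p = 0.181). Eif5b, the GTPase that joins the ribosomal subunits, had 438, 378 and 418 CPM in AEL libraries, against 202, 207 and 191 CPM in NC libraries. The groups did not overlap, and it rose by 1.04 ± 0.11 (SE, edgeR adjusted p = 0.000594) on the log2 scale. Eif1, which guards the choice of start codon, averaged 178 ± 19.7 CPM across AEL libraries and 267 ± 21.4 CPM across NC libraries (SD, n = 3 each) and fell, at -0.58 ± 0.12 (SE, edgeR adjusted p = 0.00793). Its paralog Eif1b had 24.9, 48.6 and 23.2 CPM in AEL libraries, against 77.5, 72.2 and 64.9 CPM in NC libraries. All AEL libraries were below NC, replicate 2 the least so, at -1.15 ± 0.30 (SE, edgeR adjusted p = 0.0166). The Eif1b call ended without AEL replicate 3 (adjusted p = 0.0521), NC replicate 1 (0.0646) or NC replicate 2 (0.057). Eif5, which triggers GTP hydrolysis by eIF2, was at -0.09 and Eif1ad, an eIF1A-like protein, at -0.30, and neither passed.

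Among the 14 genes of eIF2, its exchange factor and its kinases, the largest changes were in kinases. Here 3 genes rose (21.4%, against 23.9% of all genes tested) and 1 fell (7.14%, against 29.0%). Eif2ak1, which encodes HRI, had 179.7, 169.8 and 102 CPM in AEL libraries, against 326, 356 and 392 CPM in NC libraries. All AEL libraries lay below NC and replicate 3 was the lowest, at -1.25 ± 0.22 (SE, edgeR adjusted p = 0.00402). The erythroid marker sums stood in the same order within AEL, at 9762, 5559 and 4225 CPM, and their part in the result was not tested. Eif2ak4, which encodes the amino acid sensor GCN2, had 47.7, 56.2 and 55.2 CPM in AEL libraries, against 27.7, 24.9 and 26.8 CPM in NC libraries. Each AEL library exceeded each NC library, at 1.00 ± 0.14 (SE, edgeR adjusted p = 0.00176). Eif2ak2, which encodes the double-stranded RNA sensor PKR, averaged 62.9 ± 6.68 CPM across AEL libraries and 54.1 ± 2.63 CPM across NC libraries (SD, n = 3 each) and did not pass, although it did with library totals (adjusted p = 0.0309) and without AEL replicate 3 (0.0495). Eif2ak3, which encodes the endoplasmic reticulum sensor PERK, was at 0.18 and did not pass.

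Of the 3 eIF2 subunits 1 rose, and of the 5 eIF2B subunits 1 rose (33.3% and 20%, against 23.9% of all genes tested). Eif2s1, the subunit that the kinases phosphorylate, had 238, 193 and 232 CPM in AEL libraries, against 172, 174 and 158 CPM in NC libraries. The groups did not overlap, and it rose by 0.39 ± 0.12 (SE, edgeR adjusted p = 0.0304), a call lost when any 1 NC replicate was left out (adjusted p = 0.114 to 0.148). Eif2s2 and Eif2s3x, the other subunits, were at 0.23 and -0.13 and did not pass. Eif2b5, the catalytic subunit of eIF2B, averaged 121 ± 18.8 CPM across AEL libraries and 91.1 ± 2.64 CPM across NC libraries (SD, n = 3 each) and rose, at 0.41 ± 0.14 (SE, edgeR adjusted p = 0.0406). That call ended with quantile normalization (adjusted p = 0.0606), when AEL replicate 3 was left out (0.0541) and when any 1 NC replicate was (0.131 to 0.169). Eif2b1, Eif2b2, Eif2b3 and Eif2b4 were at 0.29, 0.10, 0.18 and -0.34 and did not pass. Eif2b1 passed with library totals (adjusted p = 0.0434) and without AEL replicate 2 (0.0484), and Eif2b4 without AEL replicate 1, at -0.44 (0.0281). Eif2a and Eif2d, which can deliver initiator tRNA in other ways, were at 0.22 and -0.26 and did not pass. Over the 14 genes the number higher was 1 when any 1 NC replicate was left out.

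Genes of eIF3, the large scaffold of the initiation assembly, were called in both directions. Of these calls only that of Eif3k held in all 17 alternatives. Of 13 genes 4 rose (30.8%, against 23.9% of all genes tested) and 2 fell (15.4%, against 29.0%). Eif3b had 821, 637 and 877 CPM in AEL libraries, against 508, 543 and 501 CPM in NC libraries. It was higher in every AEL library, at 0.59 ± 0.15 (SE, edgeR adjusted p = 0.0142). Eif3c, Eif3e and Eif3d, further subunits, rose by 0.50, 0.47 and 0.45 on the log2 scale. The number called higher was 0, 1 and 0 without NC replicate 1, 2 and 3, where the 1 was Eif3d. The log2 fold changes stayed positive in those fits, at 0.54, 0.58 and 0.53 for Eif3b (adjusted p = 0.0619 to 0.0779), 0.45, 0.47 and 0.45 for Eif3c (0.115 to 0.126) and 0.47, 0.46 and 0.36 for Eif3e (0.0545 to 0.0736). Eif3k, a peripheral subunit, had 168, 205 and 183 CPM in AEL libraries, against 299.6, 263 and 261 CPM in NC libraries. It lay below NC in every AEL library, at -0.57 ± 0.12 (SE, edgeR adjusted p = 0.00786). Eif3j1, a loosely bound subunit, averaged 76.7 ± 12.0 CPM across AEL libraries and 104 ± 9.27 CPM across NC libraries (SD, n = 3 each) and fell, at -0.45 ± 0.15 (SE, edgeR adjusted p = 0.0436), while its near-identical paralog Eif3j2, at -0.27, did not pass. The Eif3j1 call ended in 9 of 17 alternatives, among them library totals (adjusted p = 0.222) and leaving out AEL replicate 1 (0.174), AEL replicate 2 (0.185) or any 1 NC replicate (0.0672 to 0.128). Eif3a, Eif3f, Eif3h, Eif3i, Eif3l and Eif3m lay between -0.19 and 0.08 and did not pass.

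**Figure D2:**
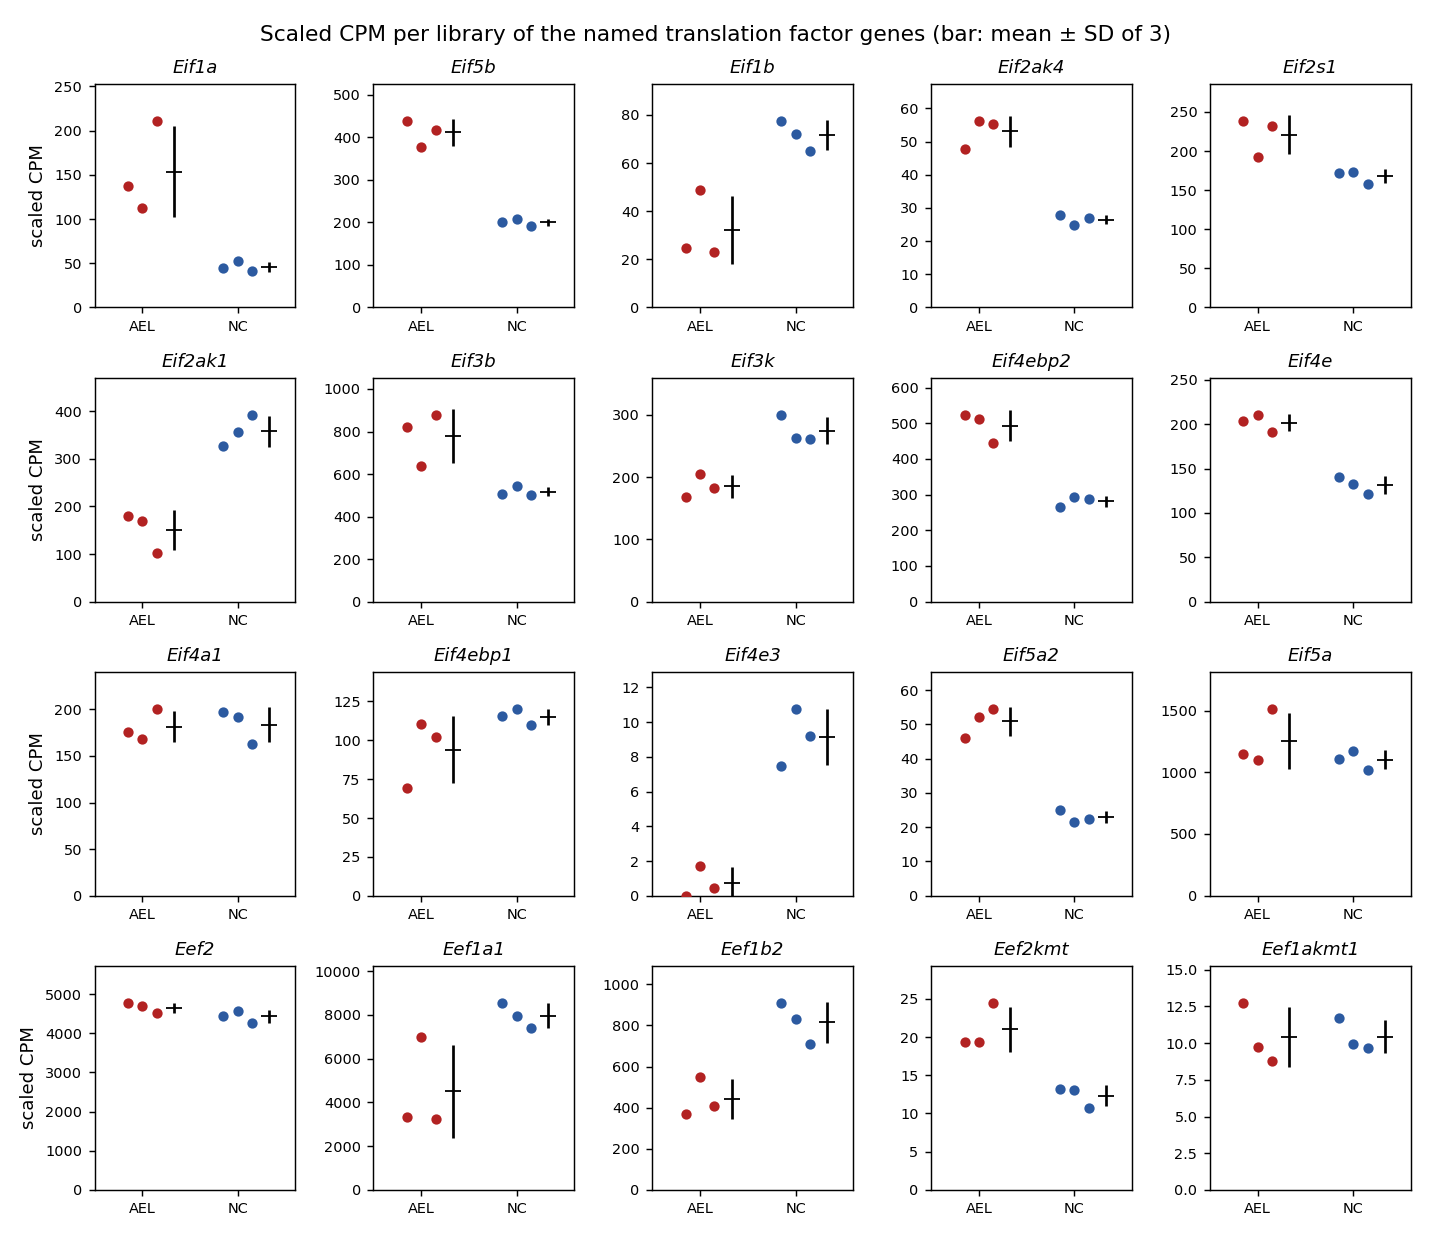
Scaled CPM of 20 translation factor genes in each library, with AEL in red on the left of each panel, NC in blue on the right and the mean ± SD of 3 libraries in black. Eif1a, Eif5b, Eif2ak4 and Eif5a2 show AEL libraries above NC, and Eif2ak1 and Eef1b2 show them below. AEL replicate 2 stands apart for Eef1a1, at 6967 CPM.

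Of 15 genes of the cap-binding group 5 rose, 1 fell and 9 did not pass. The share higher was 33.3%, against 23.9% of all genes tested, the share lower 6.67%, against 29.0%, and the share called 40%, against 52.8%. The genes that rose were Eif4e, Eif4g1, Eif4g2, Eif4b and Eif4ebp2. Of the 5 genes of the eIF4F core, Eif4a1, Eif4a2, Eif4e, Eif4g1 and Eif4g3, 2 rose (40%, against 23.9% of all genes tested) and 0 fell. Eif4e, the cap-binding protein, had 204, 210.3 and 191 CPM in AEL libraries, against 141, 132 and 121 CPM in NC libraries. The AEL libraries lay above NC, at 0.62 ± 0.11 (SE, edgeR adjusted p = 0.00344). Eif4g1, the main scaffold, averaged 1071 ± 90.8 CPM across AEL libraries and 764 ± 61.4 CPM across NC libraries (SD, n = 3 each) and rose, at 0.49 ± 0.12 (SE, edgeR adjusted p = 0.0155). Without NC replicate 1, 2 or 3 its log2 fold change was 0.39, 0.50 or 0.46 and missed the threshold (adjusted p = 0.0572 to 0.0962). Eif4g2, an eIF4G-like protein that does not bind eIF4E, had 1840, 1744 and 1885 CPM in AEL libraries, against 1034, 1083 and 1041 CPM in NC libraries. The groups were far apart, at 0.79 ± 0.11 (SE, edgeR adjusted p = 0.00152). Eif4b, which stimulates the helicase, rose by 0.54 ± 0.11 (SE, edgeR adjusted p = 0.00798), and did not pass without NC replicate 3 (adjusted p = 0.0515). Eif4a1, the helicase, had 176, 169 and 200.2 CPM in AEL libraries, against 197, 192 and 163 CPM in NC libraries. The groups overlapped, at -0.02 ± 0.12 (SE, edgeR adjusted p = 0.921). Its paralog Eif4a2 averaged 185 ± 27.6 CPM across AEL libraries and 235 ± 13.7 CPM across NC libraries (SD, n = 3 each) and did not pass (edgeR adjusted p = 0.072), although it did by DESeq2 (0.0477) and without AEL replicate 2 (0.0316).

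The 3 inhibitors of eIF4E did not move together. Eif4ebp2 had 523, 513 and 444 CPM in AEL libraries, against 264, 293 and 288 CPM in NC libraries. Every AEL library was above NC, at 0.81 ± 0.11 (SE, edgeR adjusted p = 0.0017). Eif4ebp1 had 69.4, 111 and 102 CPM in AEL libraries, against 115, 120.0 and 109.7 CPM in NC libraries. Replicate 1 was the lowest and the groups overlapped, at -0.29 ± 0.18 (SE, edgeR adjusted p = 0.22). Eif4ebp3 averaged 9.45 ± 0.914 CPM across AEL libraries and 13.9 ± 1.68 CPM across NC libraries (SD, n = 3 each) and did not pass (edgeR adjusted p = 0.0853). Eif4e3, a paralog of Eif4e, had 0, 16 and 5 counts in AEL libraries, against 58, 91 and 80 counts in NC libraries. These are 0, 1.74 and 0.457 CPM in AEL libraries, against 7.48, 10.7 and 9.21 CPM in NC libraries, with AEL replicate 1 under its floor of 3 counts (0.351 CPM), and the log2 fold change was -3.63 ± 0.92 (SE, edgeR adjusted p = 0.0152). The neutrophil marker sums, at 17.6, 1033 and 116 CPM, and the macrophage marker sums, at 2.70, 27.8 and 10.8 CPM, stood in the same order within AEL. The part of either in the result was not tested. Eif4e3 reached the 1 CPM of the filter in all NC libraries and in AEL only in replicate 2, so its fall is limited by few counts. The Eif4e3 call ended when any 1 NC replicate was left out (adjusted p = 0.0559 to 0.0655). Eif4e2, Eif4a3, Eif4enif1, Eif4g3 and Eif4h lay between -0.17 and 0.12 and did not pass.

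Of the eIF5A paralogs Eif5a2 rose and Eif5a did not pass. Eif5a, which encodes the hypusine-containing factor that helps ribosomes past difficult peptide bonds, had 1146, 1096 and 1511 CPM in AEL libraries, against 1111, 1172 and 1018 CPM in NC libraries. The groups overlapped, at 0.18 ± 0.16 (SE, edgeR adjusted p = 0.356), and it passed with quantile normalization (adjusted p = 0.016). Eif5a2 had 46.0, 52.1 and 54.4 CPM in AEL libraries, against 25.0, 21.4 and 22.5 CPM in NC libraries. All AEL libraries exceeded NC, at 1.15 ± 0.15 (SE, edgeR adjusted p = 0.00136). Eif6, which keeps the large ribosomal subunit from joining too early, had 159, 112 and 177 CPM in AEL libraries, against 116, 129 and 111 CPM in NC libraries. AEL replicate 2 was the low one, and it did not pass (edgeR adjusted p = 0.163) except without that library, at 0.58 (adjusted p = 0.00901).

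Of the 6 elongation factors 0 rose (against 23.9% of all genes tested) and 2 fell (33.3%, against 29.0%). Their summed level was 8954, 12644 and 8549 CPM in AEL replicates 1, 2 and 3, against 14578, 14019 and 12964 CPM in NC libraries, with AEL replicate 2 nearest to NC. Eef1a1 and Eef2, neither of them called, were the largest terms of this sum in every library. Eef1b2, part of the exchange factor that recharges eEF1A, had 371, 551 and 406 CPM in AEL libraries, against 908, 829 and 709.7 CPM in NC libraries. It was lower in every AEL library, at -0.88 ± 0.18 (SE, edgeR adjusted p = 0.00729). Eef1d, another part of that factor, averaged 210.3 ± 17.1 CPM across AEL libraries and 346 ± 23.2 CPM across NC libraries (SD, n = 3 each) and fell, at -0.72 ± 0.11 (SE, edgeR adjusted p = 0.00244). Eef1g, a further part, had 183, 176 and 113 CPM in AEL libraries, against 235, 233 and 195 CPM in NC libraries. It was lower in every AEL library and did not pass (edgeR adjusted p = 0.0805). Eef1a1 had 3340, 6967 and 3217 CPM in AEL libraries, against 8528, 7960 and 7383 CPM in NC libraries. Replicates 1 and 3 were far below NC and replicate 2 just below it, at -0.82 ± 0.32 (SE, edgeR adjusted p = 0.0654), so it did not pass. It passed by DESeq2 (adjusted p = 0.0157), by limma with a pseudocount of 1 CPM, just under the threshold, or 5 CPM (0.0478), and without AEL replicate 2, at -1.21 (0.000915), and turned to 0.37 with quantile normalization. Eef2 had 4762, 4681 and 4502 CPM in AEL libraries, against 4444, 4577 and 4260 CPM in NC libraries. The groups overlapped, at 0.07 ± 0.12 (SE, edgeR adjusted p = 0.647), and with quantile normalization it rose, at 1.30 (adjusted p = 0.00129). Eef1e1, a protein of the aminoacyl-tRNA synthetase complex, was at -0.08 and did not pass. Of 83 cytosolic ribosomal protein genes 2 rose (2.41%, against 23.9% of all genes tested) and 24 fell (28.9%, against 29.0%). Their median log2 fold change was -0.37, against -0.05 for all genes tested. Their sums of 16499, 21786 and 16352 CPM in AEL libraries, against 31836, 29582 and 26474 CPM in NC libraries, were also highest in replicate 2 within AEL. Levels of single genes differed widely, with NC means of 2.34 CPM for Rpl38 and 2278 CPM for Rpl8. Sequence that these genes share with others was not measured, so the counts assigned to them are uncertain.

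Among 3 enzymes that modify elongation factors 1 rose (33.3%, against 23.9% of all genes tested) and 0 fell. Eef2kmt, which methylates eEF2, had 19.4, 19.3 and 24.4 CPM in AEL libraries, against 13.2, 13.1 and 10.7 CPM in NC libraries. It was higher in every AEL library, at 0.77 ± 0.22 (SE, edgeR adjusted p = 0.0227), a call lost when any 1 NC replicate was left out (adjusted p = 0.0817 to 0.107). Eef2k, the kinase that inhibits eEF2, had 310.1, 167 and 347 CPM in AEL libraries, against 198, 205 and 210.4 CPM in NC libraries. AEL replicate 2 was below NC and the other AEL libraries above it, and it did not pass (edgeR adjusted p = 0.2) except without AEL replicate 2, at 0.76 (adjusted p = 0.00207). Eef1akmt1, which methylates eEF1A, had 12.7, 9.77 and 8.78 CPM in AEL libraries, against 11.7, 9.92 and 9.67 CPM in NC libraries, with overlapping groups.

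A set of 9 of the genes is known, mainly from human cells, to carry a 5′ terminal oligopyrimidine tract, which puts their translation under mTOR control. Eif4b and Eif3e rose, Eef1b2 and Eef1d fell, and Eef1a1, Eef1g, Eef2, Eif3f and Eif3h did not pass. The shares higher and lower were 22.2% each, against 23.9% and 29.0% of all genes tested. The median log2 fold change was -0.10, against -0.05 for all genes tested. The number higher was 1, 1 and 0 without NC replicate 1, 2 and 3.

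On 4 chromosomes the median of all genes tested deviated unevenly between the AEL libraries, and 9 of the 61 genes lie there. On chromosome 9, the median deviation of 632 genes from the NC mean, as log2(CPM + 1), was -0.70, -0.05 and -0.74 in AEL replicates 1, 2 and 3. Eef1a1 deviated by -1.25, -0.19 and -1.30 and Eif1b by -1.48, -0.54 and -1.58. Relative to the chromosome these are -0.55, -0.13 and -0.56 for Eef1a1 and -0.78, -0.49 and -0.84 for Eif1b, so both lay below its median in each AEL library. On chromosome 19 the median of 431 genes was -0.15, -0.17 and -0.95, and AEL replicate 3 was the lowest AEL library for its 3 members. Eef1g deviated by -0.26, -0.32 and -0.96, Eif1ad by -0.01, -0.24 and -0.75 and Eif3a, the largest eIF3 subunit, by 0.43, 0.11 and -0.42. On chromosome 3 the median of 557 genes was 0.05, 0.41 and 0.16. Eif2a, a factor of alternative initiation, deviated by -0.19, 0.60 and 0.14, highest in replicate 2 as the chromosome was. Eif4e and Eif5a2 lay above that chromosome's median in each AEL library, by 0.58, 0.26 and 0.38 for Eif4e and by 0.93, 0.74 and 1.05 for Eif5a2. On chromosome 14 the median of 393 genes was -0.13, -0.72 and -0.78, and Eef1akmt1 deviated by 0.27, -0.08 and -0.22. The part of these chromosome-wide deviations in the results was not tested. TMM factors from genes outside chromosomes 3, 9, 14, 19 and Y gave 16 genes higher and 7 lower.

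**Figure D3:**
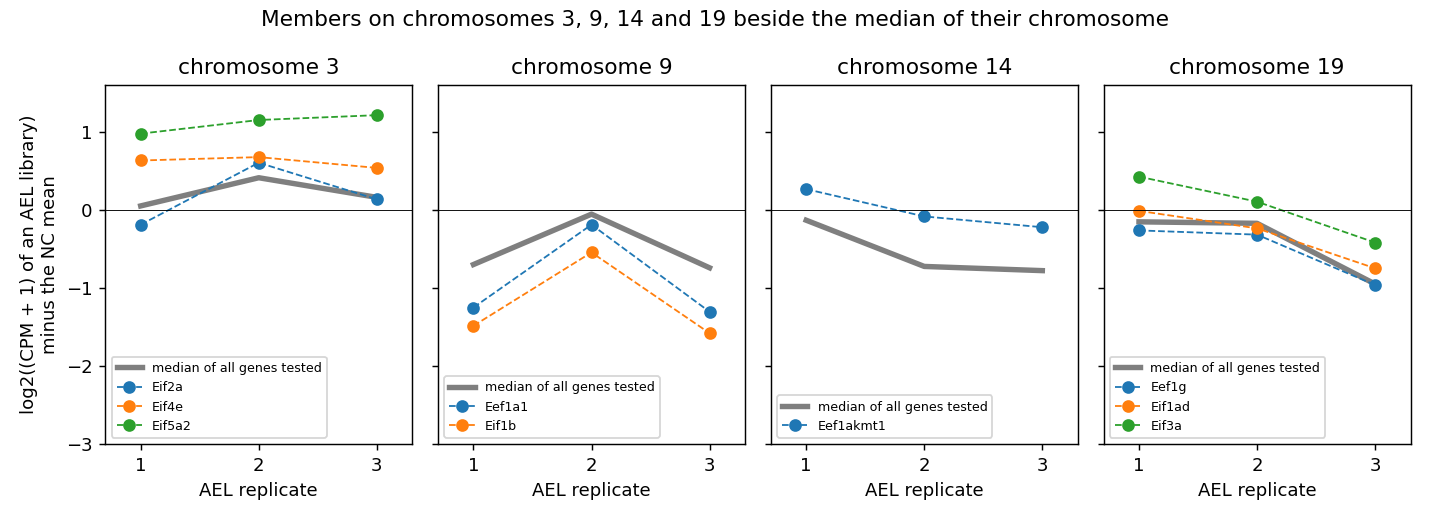
Deviation of each AEL library from the NC mean on the log2(CPM + 1) scale, for members on chromosomes 3, 9, 14 and 19 (points) and for the median of all genes tested on that chromosome (grey line). Eef1a1 and Eif1b are lowest in replicates 1 and 3, as is the chromosome 9 line at -0.70, -0.05 and -0.74.

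Ratios of related genes within a library do not depend on scaling between libraries. Of 14 pairs listed 13 were measured, and the AEL and NC libraries did not overlap for 9 of them. Each of these had an exact two-sided permutation p of 0.1, the smallest that 3 against 3 libraries allow (0.144 adjusted over the 13 pairs), so none can pass. With 1 count added to each gene, Eif1a had 1.08, 0.964 and 1.43 counts per Eif1ax count in AEL libraries, against 0.278, 0.339 and 0.294 in NC libraries. Eif2ak1 had 3.76, 3.02 and 1.84 counts per Eif2ak4 count in AEL libraries, against 11.7, 14.2 and 14.5 in NC libraries. Both ratios were far apart between the groups. Eif4e had 2.94, 1.90 and 1.88 counts per Eif4ebp1 count in AEL libraries, against 1.22, 1.10 and 1.11 in NC libraries. Eif4ebp1 had 0.133, 0.216 and 0.229 counts per Eif4ebp2 count in AEL libraries, against 0.437, 0.410 and 0.381 in NC libraries. Neither ratio overlapped between the groups, and both contain Eif4ebp1, which was not called. Eif5a had 24.8, 21.0 and 27.7 counts per Eif5a2 count in AEL libraries, against 44.2, 54.5 and 45.1 in NC libraries. Eef1a1 had 0.701, 1.49 and 0.715 counts per Eef2 count in AEL libraries, against 1.92, 1.74 and 1.73 in NC libraries, with AEL replicate 2 the nearest to NC. The log2 ratio of Eif4g1 to Eif4g2 differed by -0.31, of Eif4g1 to Eif4g3 by 0.43 and of Eif4e to Eif4e2 by 0.50. The groups overlapped for Eif4a1 over Eif4a2, Eif1 over Eif1b, Eif3j1 over Eif3j2 and Eef1b2 over Eef1d, with exact permutation p of 0.2, 0.4, 0.2 and 0.6.

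**Figure D4:**
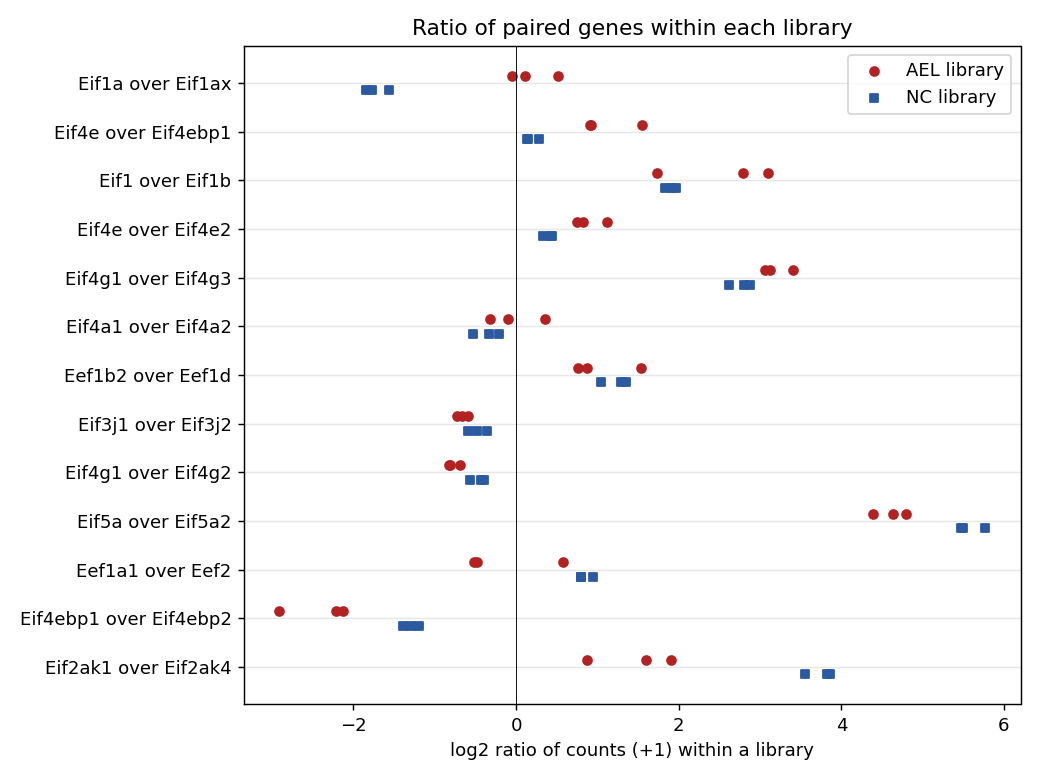
Log2 ratio of counts of paired genes within each AEL library (red circles) and NC library (blue squares), with 1 count added to each gene. The Eif1a to Eif1ax ratio differs by 1.91 between AEL and NC and the Eif2ak1 to Eif2ak4 ratio by -2.29.

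Among other genes of translation are those of hypusine synthesis and of diphthamide synthesis, which modifies eEF2. The share called was 55.6% of these 9 genes, against 52.8% of all genes tested. Of the 9 genes 4 rose (44.4%, against 23.9%) and 1 fell (11.1%, against 29.0%), the same numbers in each alternative run. Dph6 had 43.7, 50.3 and 44.7 CPM in AEL libraries, against 12.8, 14.6 and 14.5 CPM in NC libraries. The groups did not overlap, at 1.73 ± 0.16 (SE, edgeR adjusted p = 0.000433). Dph3 had 28.4, 17.5 and 15.7 CPM in AEL libraries, against 49.8, 50.2 and 44.8 CPM in NC libraries, and was lower in every AEL library, at -1.23 ± 0.25 (SE, edgeR adjusted p = 0.00638). Dph1, Dph2 and Dph5 rose by 1.44, 1.69 and 1.31, while the diphthamide genes Dph7 and Dnajc24 were at 0.09 and -0.06 and did not pass. Dhps and Dohh, which make hypusine on eIF5A, were at 0.07 and 0.03 and did not pass. Of 9 genes of termination and recycling 3 rose (33.3%, against 23.9% of all genes tested) and 0 fell. With library totals 6 rose, and with TMM factors from genes outside the 5 chromosomes 5 rose. Gspt1, which encodes a release factor, rose by 0.77 ± 0.14 (SE). Its paralog Gspt2 had 40, 53 and 49 counts in AEL libraries, against 6, 2 and 5 counts in NC libraries, where replicate 2 was under the floor of 3 counts. These are 4.50, 5.75 and 4.48 CPM in AEL libraries, against 0.774, 0.236 and 0.576 CPM in NC libraries. It passed the filter on low counts through AEL alone, and its rise, at 3.19 ± 0.47 (SE, edgeR adjusted p = 0.00192), is limited by these few counts. Of 10 mitochondrial translation factors 1 rose (10%, against 23.9% of all genes tested) and 0 fell. With library totals 3 rose, and with quantile normalization 2 rose. Gfm1, the mitochondrial elongation factor G, had 141, 182 and 205 CPM in AEL libraries, against 101, 108 and 93.3 CPM in NC libraries, and was higher in every AEL library, at 0.80 ± 0.16 (SE, edgeR adjusted p = 0.0061).

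Of 13 genes of poly-A binding and cap control 5 rose (38.5%, against 23.9% of all genes tested) and 1 fell (7.69%, against 29.0%). The number lower was 3 without AEL replicate 2. Larp1, which binds messages with an oligopyrimidine tract, had 622, 494 and 711 CPM in AEL libraries, against 198, 238 and 222 CPM in NC libraries. AEL libraries were all above NC, at 1.48 ± 0.16 (SE, edgeR adjusted p = 0.000759). Pabpc4, a poly-A binding protein, had 352, 311 and 358 CPM in AEL libraries, against 537, 584 and 543 CPM in NC libraries, and was lower in every AEL library, at -0.70 ± 0.11 (SE, edgeR adjusted p = 0.00233). Of 11 genes of mTOR and S6 kinase 5 rose (45.5%, against 23.9% of all genes tested) and 2 fell (18.2%, against 29.0%). The number lower was 1 with library totals and without AEL replicate 1, AEL replicate 3 or any 1 NC replicate. Deptor, an inhibitor of mTOR, had 65.0, 46.3 and 30.5 CPM in AEL libraries, against 6.45, 4.96 and 7.48 CPM in NC libraries, and was higher in every AEL library, at 2.90 ± 0.34 (SE, edgeR adjusted p = 0.000872). Rps6, the ribosomal protein that S6 kinase phosphorylates, fell, at -0.82 ± 0.17 (SE, edgeR adjusted p = 0.00711), while Mtor and Rptor rose by 0.81 and 1.38. Tsc1 and Tsc2 also rose, by 0.65 and 1.00, and Rheb fell, at -0.40 (edgeR adjusted p = 0.0382).

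Of 9 tested genes of the eIF2 stress response 3 rose (33.3%, against 23.9% of all genes tested) and 2 fell (22.2%, against 29.0%). The number higher was 1 and the number lower 1 without NC replicate 1 or 2, and the number higher was 2 and the number lower 1 without AEL replicate 1, AEL replicate 3 or NC replicate 3. Ppp1r15a, which directs a phosphatase to eIF2, had 70.9, 62.1 and 46.7 CPM in AEL libraries, against 272, 343 and 343 CPM in NC libraries. It was far lower in every AEL library, at -2.42 ± 0.19 (SE, edgeR adjusted p = 0.000265). Trib3, a pseudokinase induced by ATF4, had 6.86, 1.41 and 18.7 CPM in AEL libraries, against 0.902, 0.709 and 0.806 CPM in NC libraries. It was higher in every AEL library and varied widely among them, at 3.46 ± 0.92 (SE, edgeR adjusted p = 0.0182). Trib3 passed the filter on low counts through AEL alone, and its rise is limited by the 7, 6 and 7 counts in NC libraries. The call was lost when any 1 NC replicate was left out (adjusted p = 0.0749 to 0.0805) and by limma with a pseudocount of 5 CPM (0.0634). Asns, an ATF4 target, rose by 1.53 ± 0.31 (SE), and Atf4 was at -0.41 and did not pass. Ddit3, Chac1 and Ppp1r15b, at 0.31, 1.25 and 0.05, did not pass either. Impact rose by 0.93 and Nck1 fell, at -0.91.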

How the data were processed

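Poly-A RNA of sorted cells was sequenced, per the labels. The authors deposited 1 table of whole-number counts per gene, not scaled although it is called CPM. Per the submitters' processing notes, mm10 was the genome build named and edgeR 3.32.1 a tool named, neither with a role; aligner, counter and strand setting: not given in the sources used here. Counts were tested with edgeR 4.0.16 (R 4.3.3), TMM scaling, group as the only term, for 12427 of 13007 genes that reached 1 CPM in 3 or more libraries. The code was tested on simulated data with the same dispersion in both groups, so that test does not cover the larger spread of the AEL libraries. The SE is |log2 fold change| / sqrt(F). A floor of 3 counts equals 0.302 to 0.367 CPM and covers counting error only. DESeq2 1.42.0 and limma 3.58.1 served as alternatives, and scipy 1.17.1 for ratios. Transcripts came from GENCODE vM21 (GRCm38), promoters from RefSeq GRCm38.p6. Members, lists and tests were chosen with earlier results of these data known. The naming rule took called members that changed by 1 or more (log2), the extremes of each role, 8 set members, Erg, Trp53 and the called extremes of each list; other genes named were chosen after their values were seen.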

Additional observations from a re-analysis of the deposited data

How the results depend on the processing

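Leaving out 1 library gave 7 to 19 of the 61 genes higher and 5 to 9 lower, and 1672 to 3253 of all genes higher and 1780 to 3834 lower. The low ends came without an NC replicate, and the cause was not tested. Of the 61 genes, 39 kept their side of the threshold in all 17 alternatives run, and no called gene changed sign. Replicate numbers were not taken as pairs: deviations of same-numbered libraries correlated at 0.062, -0.033 and -0.056, and only those numbered 1 correlated best with their own number. With the replicate block 10 of the 61 genes were higher and 8 lower, and 2241 of all genes higher and 3238 lower. Other scalings, filters and tools gave 16 to 18 of the 61 higher and 7 to 10 lower. Depth limits Eif4e3, with 0 to 16 counts in AEL, Gspt2, with 2 to 6 counts in NC, and Trib3, with 6 to 7 counts in NC.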
